A study of Homo sapiens with 2 samples.

Results

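The p53 family, its MDM regulators and a set of p53 target genes were followed in the SK-N-MC cell line after stable overexpression of human melanotransferrin. The 30 genes were listed by name, as family members, regulators and targets outside the BCL2 and death receptor families, and each was read from the probe sets annotated to it alone. Of these 30 genes, 28 had such a probe set, with 71 probe sets in all among the 41097 of the array that name 1 gene. TP63 and BTG2 are not analysed here, and neither is the transcript of p53 itself. SK-N-MC is a human tumour line named as neuroepithelioma by the submitters and now assigned to the Ewing tumour family. RNA was compared on Affymetrix U133 Plus 2.0 arrays between stable hyperexpression clone 4, which carried human melanotransferrin cDNA in the vector pCMV-Script, and vector control 1, which carried pCMV-Script without an insert. Both lines were thus transfected with a vector whose cytomegalovirus promoter drives the insert, and each group was 1 array of 1 line. No test between the groups was possible, every value is a single measurement, and clonal differences cannot be told apart from the effect of the insert.

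p53 is a transcription factor that is held at a low level by the ubiquitin ligase MDM2 and its partner MDM4 and is stabilised by DNA damage and other stress. It then activates genes for cell cycle arrest, DNA repair, redox control and cell death, and also MDM2, which closes a negative feedback loop. TP63 and TP73 encode relatives that bind the same DNA element and share part of the target genes.

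The p53 element lies close to the start of some of these genes, and the promoters that hold it are shown because they link the family, the regulators and the targets. The 250 bases before each annotated start in the RefSeq promoter table (GRCh38.p14) were searched for the p53 consensus site, taken as a pair of 10-base half-sites with their central C and G intact, 0 to 13 bases apart and with at most 2 other mismatches in the pair. The site reads the same on both strands. It was present in windows of 3 of the 24 listed genes with an entry (12.5%; TP73, MDM2 and AEN) and of 839 of all 27305 genes (3.07%), or in 4 of 34 windows (11.8%) and 875 of 35116 windows (2.49%). GADD45A and PHLDA3 were among the listed genes without an entry, so their promoters were not searched. A match is a description of letters and not evidence of binding. The site is in capitals in the lines below, which run 5′ to 3′ and end at the base before the start.
TP73, chr1:3690422-3690671, plus strand: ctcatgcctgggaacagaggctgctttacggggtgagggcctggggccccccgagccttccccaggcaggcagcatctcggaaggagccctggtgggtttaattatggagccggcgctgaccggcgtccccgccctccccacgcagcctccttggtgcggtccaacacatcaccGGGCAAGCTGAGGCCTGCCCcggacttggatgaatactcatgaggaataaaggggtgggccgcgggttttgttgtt
MDM2, chr12:68808767-68809016, plus strand: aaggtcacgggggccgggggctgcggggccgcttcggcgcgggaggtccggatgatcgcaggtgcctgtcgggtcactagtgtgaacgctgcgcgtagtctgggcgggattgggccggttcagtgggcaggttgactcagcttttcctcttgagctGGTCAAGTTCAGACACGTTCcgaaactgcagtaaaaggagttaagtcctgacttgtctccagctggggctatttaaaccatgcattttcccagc
AEN, chr15:88621090-88621339, plus strand: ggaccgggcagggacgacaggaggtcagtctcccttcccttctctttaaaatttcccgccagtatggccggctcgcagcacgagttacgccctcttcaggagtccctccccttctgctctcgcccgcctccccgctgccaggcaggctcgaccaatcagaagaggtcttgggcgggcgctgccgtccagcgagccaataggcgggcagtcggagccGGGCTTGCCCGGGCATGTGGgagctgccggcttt

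The TP73 window belongs to one of 3 annotated starts and lies inside the gene, where an internal promoter is known to give the shortened p73 forms that oppose p53. Its site spans bases 76 to 57 before the start. The MDM2 window belongs to the promoter in the first intron that p53 is known to use, with the 1 match of this search at bases 94 to 75. Sites with a changed central C or G would have been missed by the rule. The next annotated MDM2 start, a few bases on, has the same site in its window. AEN encodes a nuclease that p53 induces during apoptosis, and its site lies at bases 34 to 15.

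The transfected gene separated the arrays as labelled. MELTF, which encodes melanotransferrin, read 4449.4 in the clone and 18.4 in the vector control on 1 probe set, a signal at least 21.4-fold higher, while its other 3 probe sets did not differ in this way. Signals are linear values scaled by the submitters to the same trimmed mean, 999.88 on both arrays. A floor of 208, the 90th percentile of 191 probe sets of genes not expected in this line (odorant and bitter taste receptors and keratin-associated proteins of hair), marked the background, and a signal under it on 1 array gives a ratio that is only a bound. Those background probe sets had a median of 44.0 in the clone and 67.4 in the control. All 18 probe sets for hybridisation spikes were lower on the clone array (median ratio 0.706) and all 24 for poly-A spikes were higher (median ratio 1.53). The 3′ to 5′ signal ratio was 1.44 in the clone and 1.21 in the control for ACTB, and for GAPDH it was 0.951 in the clone and 0.920 in the control. The Ewing tumour markers CD99 and NKX2-2 read 32238.8 and 12438.4 in the clone, against 31464.8 and 11549.7 in the control. Not all Ewing markers were this close, and LIPI read 4896.1 in the clone and 2892 in the control. Of the 7 with a probe set, 5 had a log2 ratio above 0 and 2 below it. Above the floor on both arrays were all 7 Ewing markers with a probe set, 7 of 8 fibroblast markers, 5 of 12 epithelial markers and 1 of 5 melanocyte markers. The epithelial markers KRT18 and CLDN1 were bright, at 10363 and 8650.1 in the clone against 9759.9 and 8613.7 in the control, while CDH1, EPCAM and KRT5 were under the floor on both arrays. KRT8 read 245.6 in the clone and 509.9 in the control, 2.08-fold lower. Of the 5 measured epithelial markers, 3 had a log2 ratio above 0 and 2 below it. The fibroblast markers COL3A1 and DCN read 12187.8 and 10407.1 in the clone, against 12047.3 and 9941 in the control. COL1A1 was lower in the clone, at 10279.1 against 15581.8, and COL1A2 higher, at 7899.9 against 5040.5. Of the 7 measured fibroblast markers, 3 had a log2 ratio above 0 and 4 below it. In whole-culture RNA, fewer cells expressing a gene and less RNA per cell cannot be told apart.

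Of the 28 genes, 21 were above the floor on both arrays, 3 (TP73, PLK3 and TP53I3) in the control only, 0 in the clone only, and 4 (PLK2, SPATA18, GDF15 and SERPINB5) on neither. On the brightest probe set of each gene, 1 of the 24 measured genes had a clone signal 2-fold or more above the control and 2 had one 2-fold or more below it. Over all 12663 measured genes, 1.21% were at least 2-fold higher and 1.90% at least 2-fold lower. With so few genes past the threshold, these counts are given as a description of the named genes. The median log2 ratio, clone over control, was 0.02 for the 24 genes and -0.02 for all measured genes. Signals in the control only were found for 3 of 24 genes, close to the 11.3% of all measured genes, and no listed gene was above the floor in the clone only, a state of 3.49% of all measured genes.

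**Figure D1:**
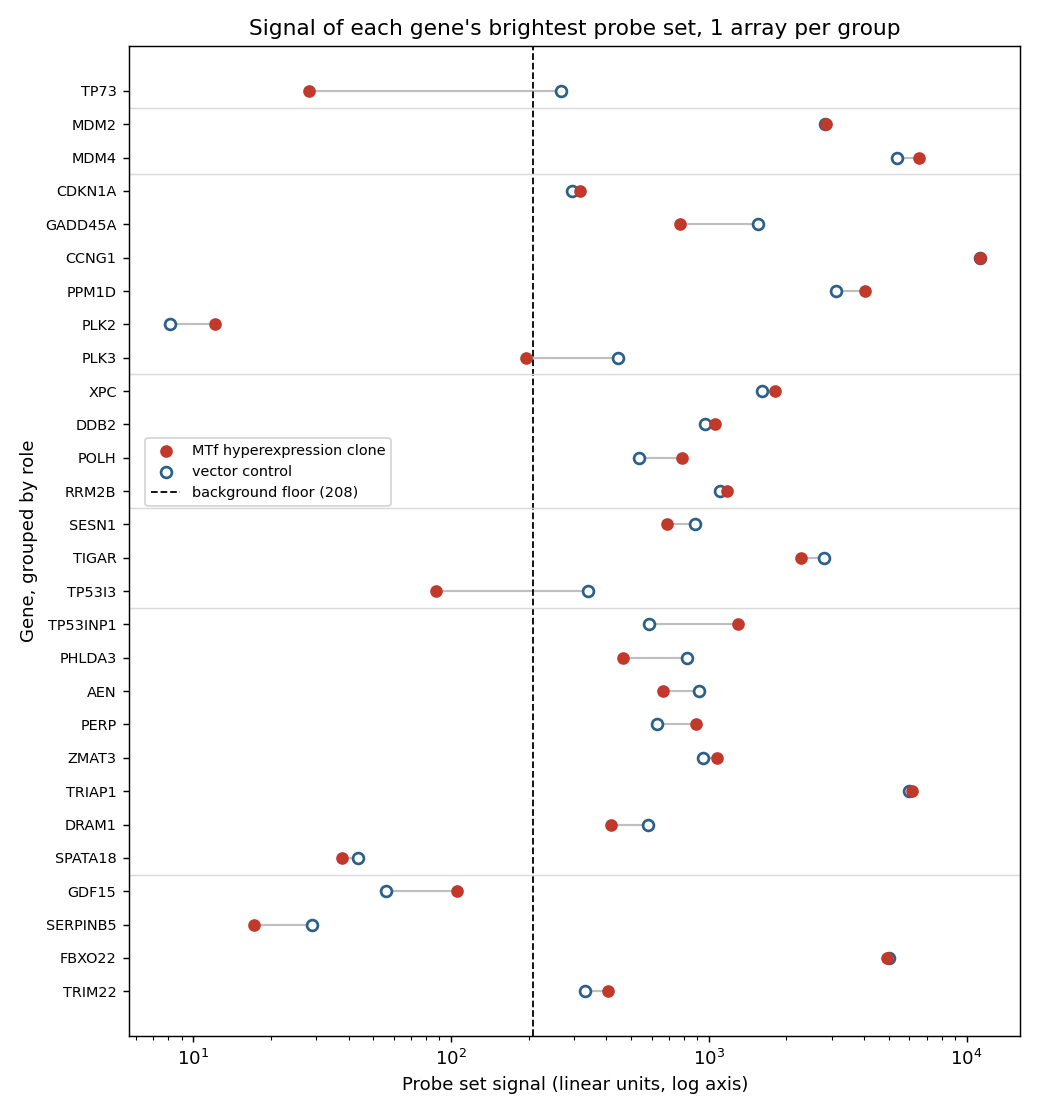
Signal of the brightest probe set of each of the 28 genes on a log axis, with the MTf hyperexpression clone as filled red points and the vector control as open blue points, 1 array each, and the floor of 208 dashed. TP53INP1 is higher in the clone, GADD45A and PHLDA3 are lower, and the clone signals of TP73, PLK3 and TP53I3 lie under the floor.

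The family itself was barely detected. TP73 read 28.1 in the clone and 267.8 in the control on its brightest probe set, so that only a bound can be given, at least 1.29-fold lower. Its other 2 probe sets were under the floor on both arrays, at 143.9 and 10 in the clone against 124.8 and 70.6 in the control. The 3 probe sets do not point one way, and the control signal stood just over the background.

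The MDM genes were bright and close to equal on both arrays. MDM2, the ligase that marks p53 for degradation and is itself a p53 target through the promoter shown above, read 2859.8 in the clone and 2828.8 in the control on its brightest probe set, a log2 ratio of 0.02. Its next probe set read 1704.2 in the clone and 2044.3 in the control. MDM2 had 10 probe sets, of which 5 were above the floor on both arrays, with log2 ratios from -0.79 to 0.45 (SD 0.45 between probe sets). Both ends of that range came from dim probe sets of shared sequence, which read 219.7 in the clone against 380.5 in the control, and 586.4 in the clone against 429.5 in the control. The brightest probe set and the next are of shared sequence too. Only the last of the 5 is not, and it read 281 in the clone and 308.5 in the control, a log2 ratio of -0.135. The remaining 5 were under the floor on both arrays, at 195.8, 93.8, 5.5, 64.2 and 7.8 in the clone against 138, 109.9, 148.5, 82.4 and 15.4 in the control. MDM4, the partner that blocks the activation domain of p53, read 6528.9 in the clone and 5378.5 in the control, a log2 ratio of 0.28. Its other probe sets read 4111.4, 1079.4, 413.4, 263.7 and 154.5 in the clone, against 3980.7, 1205.8, 496, 265 and 155 in the control. The 5 above the floor ranged from -0.26 to 0.28 on the log2 scale, with 2 above and 3 below 0, and the last was under it on both arrays.

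For comparison, the log2 ratios of different probe sets of 1 gene had a pooled SD of 0.35 over 5387 genes of these arrays. This spread covers disagreement between probe sets on the same RNA and leaves out variation between cultures and between clones. Among the 21 genes above the floor on both arrays, 12 (57.1%) lay within 1 such SD of 0, compared with 71.8% of all such genes.

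Among the genes of cell cycle arrest and feedback, CDKN1A, which encodes the cyclin-dependent kinase inhibitor p21 and is the best known p53 target, did not separate the arrays. It read 316.2 in the clone and 294.2 in the control, a log2 ratio of 0.10 on a single probe set not far above the floor. GADD45A, a stress-induced inhibitor of growth that also takes part in DNA repair, was the gene above the floor on both arrays with the lowest ratio. Its 1 probe set, on a gene of chromosome 1, read 772 in the clone and 1547.9 in the control, which is 2.01-fold lower. That ratio sat at the 2-fold threshold: its log2 value was -1.004 as deposited, -0.98 when the arrays were centred on the median of all measured genes, -0.50 when centred on the hybridisation spikes and -1.61 when centred on the poly-A spikes.

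PLK3, a polo-like kinase activated by stress, was dimmer. On its brightest probe set it read 195.8 in the clone and 442.8 in the control, at least 2.13-fold lower, with the clone signal just under the floor. The other probe sets read 175.4 and 38.6 in the clone, against 267.2 and 135.8 in the control. All 3 signals were lower in the clone, but the last probe set was under the floor on both arrays and has no ratio. The other 2 gave bounds, which lie below 0 by construction. Only the first gave a bound past 2-fold, and with the floor set 2 times as high its bound was -0.09 on the log2 scale. PLK2, a second stress-responsive polo-like kinase, was at background, with 12.1 in the clone and 8.1 in the control.

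CCNG1, a cyclin induced by p53 that acts with a phosphatase on MDM2, had a log2 ratio close to 0, with 11237.4 in the clone and 11272.3 in the control. PPM1D, the phosphatase that switches off the damage response, read 4037.5 in the clone and 3121.3 in the control, a log2 ratio of 0.37. Its dim second probe set went the other way, at 216.8 in the clone and 240.7 in the control.

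The genes of DNA repair and nucleotide supply were all under 2-fold as deposited. XPC, which recognises damage in nucleotide excision repair, read 1813.1 in the clone and 1605.8 in the control. DDB2, the ultraviolet damage sensor of the same pathway, read 1053.5 in the clone and 970.1 in the control, and RRM2B, the p53-induced subunit of ribonucleotide reductase, 1171.8 in the clone and 1108.3 in the control. Their log2 ratios of 0.18, 0.12 and 0.08 lay within the spread between probe sets. POLH, the polymerase that copies past ultraviolet damage, depended on the probe set. Its brightest read 788 in the clone and 536.1 in the control, a log2 ratio of 0.56, but that probe set has shared sequence, and centred on the hybridisation spikes it stood at 1.06. The 4 probe sets that passed the floor on each array ran from -0.53 to 0.56 with 2 on each side of 0. The other 2 were above it in the control only, at 200.4 and 204.6 in the clone against 286.3 and 246.2 in the control, and the median over all 6, these at their bound, was -0.16.

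The 3 genes of redox control and metabolism all had values below 0 as deposited. SESN1, a sestrin that restrains mTORC1 under stress, read 689.4 in the clone and 885 in the control. TIGAR, a fructose bisphosphatase that turns glucose towards the pentose phosphate pathway, read 2282.5 in the clone and 2809.6 in the control. Their log2 ratios of -0.36 and -0.30 were about the size of the spread between probe sets as deposited. They became 0.14 and 0.20 when centred on the hybridisation spikes, and -0.97 and -0.91 when centred on the poly-A spikes. TP53I3, a quinone oxidoreductase also known as PIG3, read 87.3 in the clone and 339.6 in the control on its 1 probe set. With the clone signal under the floor it was at least 1.63-fold lower.

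**Figure D2:**
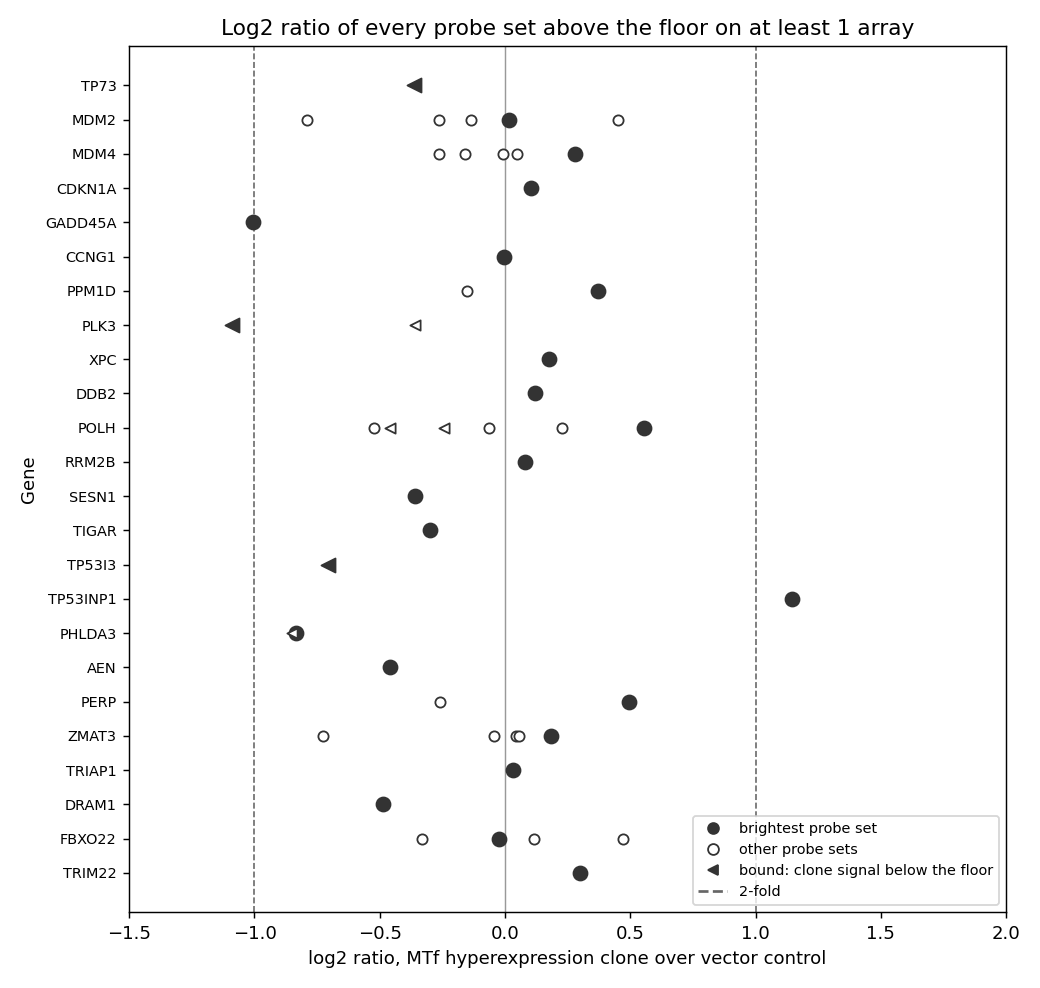
Log2 ratio, MTf hyperexpression clone over vector control, of every probe set above the floor on at least 1 array, with the brightest probe set of each gene filled, other probe sets open, and triangles for bounds where the clone signal was under the floor. MDM2, MDM4, PPM1D, POLH, PERP, ZMAT3 and FBXO22 have probe sets on both sides of 0. Only 1 probe set, of TP53INP1, lies above the upper 2-fold line.

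The genes of cell death and autophagy held the 1 gene past 2-fold in the upward direction. TP53INP1, a stress-induced nuclear protein that promotes p53 phosphorylation and autophagy, read 1292.3 in the clone and 583.6 in the control, 2.21-fold higher. This rests on 1 probe set: the other 2 were under the floor on both arrays, at 18.6 and 13.1 in the clone against 27.4 and 18.2 in the control. The log2 ratio was 1.15 as deposited, 0.54 when centred on the poly-A spikes and 1.65 when centred on the hybridisation spikes. TP53INP2, a paralogue of this gene, read 569.7 in the clone and 588.3 in the control.

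PHLDA3, which competes with AKT for membrane lipids and so restrains it, was lower on both of its probe sets. The brighter read 463.2 in the clone and 825.2 in the control, 1.78-fold lower, and the dimmer 61.2 in the clone and 374.9 in the control, at least 1.80-fold lower. PHLDA3 was the gene just inside 2-fold, next to GADD45A just past it. Among the genes with several measured probe sets, PHLDA3 and PLK3 were those in which every measured probe set was lower in the clone. Of these probe sets, only the brighter of PHLDA3 was above the floor on both arrays. The others were bounds, which lie below 0 by construction, so their shared direction adds no support.

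AEN, the nuclease whose promoter is shown above, read 664.9 in the clone and 914.4 in the control. DRAM1, a lysosomal membrane protein of p53-dependent autophagy, read 415.9 in the clone and 583.1 in the control. Their log2 ratios were -0.46 and -0.49 as deposited, 0.04 and 0.01 when centred on the hybridisation spikes, and -1.07 and -1.10 when centred on the poly-A spikes. Of the 3 genes with a p53 site in a promoter window, TP73 had only a bound, MDM2 stood at 0.02 and AEN at -0.46.

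PERP, a membrane protein of desmosomes and p53-dependent apoptosis, had probe sets that disagreed. The brightest, of shared sequence, read 890 in the clone and 631.7 in the control, and the next read 218.5 in the clone and 261.8 in the control, log2 ratios of 0.49 and -0.26. ZMAT3, an RNA-binding zinc finger protein, was the best covered target, with all 5 of its probe sets measured on each array. The 4 brighter ones lay between -0.04 and 0.18 on the log2 scale, and the dimmest, at 210.3 in the clone and 348.3 in the control, gave -0.73. TRIAP1, a small mitochondrial inhibitor of apoptosis, read 6134.3 in the clone and 5994.7 in the control. SPATA18, which takes part in the clearance of damaged mitochondria, was at background, with 37.7 in the clone and 43.4 in the control.

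Of the secreted and other targets, GDF15, a stress-induced cytokine, and SERPINB5, the epithelial serpin maspin, were under the floor on every probe set. The brightest probe set of GDF15 read 105.2 in the clone and 56 in the control, and that of SERPINB5 17.2 in the clone and 28.9 in the control. FBXO22, a ubiquitin ligase subunit, read 4893.2 in the clone and 4979.1 in the control, and its 4 probe sets above the floor ran from -0.33 to 0.47 on the log2 scale. TRIM22, a ubiquitin ligase also induced by interferon, read 407.7 in the clone and 331.1 in the control, a log2 ratio of 0.30.

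The size of the differences varied with brightness, as it did across the array. The 7 listed genes with a mean signal of 2000 or more lay between -0.30 and 0.37 on the log2 scale, and none passed 2-fold. Over all 5262 genes this bright, 0.380% were at least 2-fold higher and 0.0570% at least 2-fold lower. The 6 measured genes with a mean signal under 500 ran from -1.09, a bound, to 0.30, with a median of -0.43. The values of TP73, PLK3 and TP53I3 among them were bounds, so this median rests in part on the floor. All 3438 genes with a mean signal under 500 had a median of -0.19, and 2.04% were at least 2-fold higher and 5.06% at least 2-fold lower. The lower clone values of TP73, PLK3 and TP53I3 thus stand in a range where genes in general read lower on the clone array, whose background probe sets were also lower. The part of that background in these 3 values was not tested. GADD45A and TP53INP1 lie in brighter ranges. Between mean signals of 1000 and 2000, where GADD45A lies, 0.693% of 2164 genes were at least 2-fold lower, and between 500 and 1000, where TP53INP1 lies, 2.33% of 1799 genes were at least 2-fold higher.

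**Figure D3:**
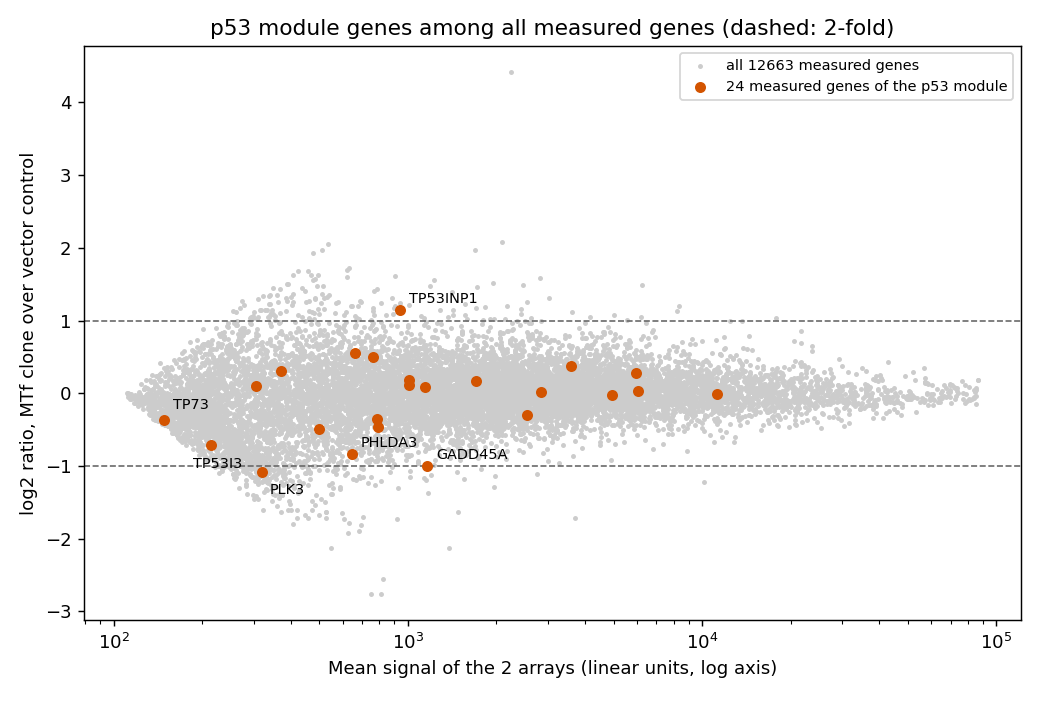
Log2 ratio, MTf hyperexpression clone over vector control, against the mean signal of the 2 arrays for all 12663 measured genes (grey) and the 24 measured genes of the p53 list (orange), with bounds at their bound. The orange points follow the funnel of the grey ones, with TP53INP1 above the upper 2-fold line and GADD45A and PLK3 at or under the lower one.

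The wider pathway was described with 40 other genes. They were upstream kinases, ligases and cofactors, relatives of the listed genes, and targets in the BCL2 and death receptor families. The rest were members or targets of the repressor complex through which p21 acts. Of these, 39 had a probe set and 35 were above the floor on both arrays, with 0 at least 2-fold higher and 0 at least 2-fold lower. Their median log2 ratio was -0.04. The 6 upstream kinases, which signal DNA damage to p53, had log2 ratios of 0.59 for ATM, 0.42 for HIPK2, 0.27 for ATR, 0.085 for PRKDC, 0.041 for CHEK1 and -0.082 for CHEK2. ATM, at 2968.6 in the clone and 1975.2 in the control, was the highest of the 35. SESN2, a sestrin like SESN1, had the lowest, at 741.5 in the clone and 1424.7 in the control, a log2 ratio of -0.94. The 4 measured targets of the BCL2 and death receptor families had log2 ratios of -0.50 for BAX, -0.36 for PMAIP1, -0.11 for TNFRSF10B and 0.18 for FAS. Dimmer probe sets of shared sequence passed 2-fold in opposite directions. One of TNFRSF10B read 790.8 in the clone and 1609.3 in the control, and one of FAS 540.7 in the clone and 232.9 in the control.

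Directions hold relative to arrays scaled to the same mean. Centred on the hybridisation spikes, the median of all measured genes moved by 0.48 on the log2 scale and higher genes made up 91.4% of all genes past 2-fold. Centred on the poly-A spikes, it moved by -0.55 and higher genes made up 1.04%, compared with 38.9% as deposited. Both spikes shift every gene by a constant, so they change the side of 0 on which a gene lies and leave the order of genes above the floor as it was. TP53INP1 and GADD45A have 1 measured probe set each, so the choices of floor and probe set left their ratios as deposited, and only the scalings could move them.

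**Figure D4:**
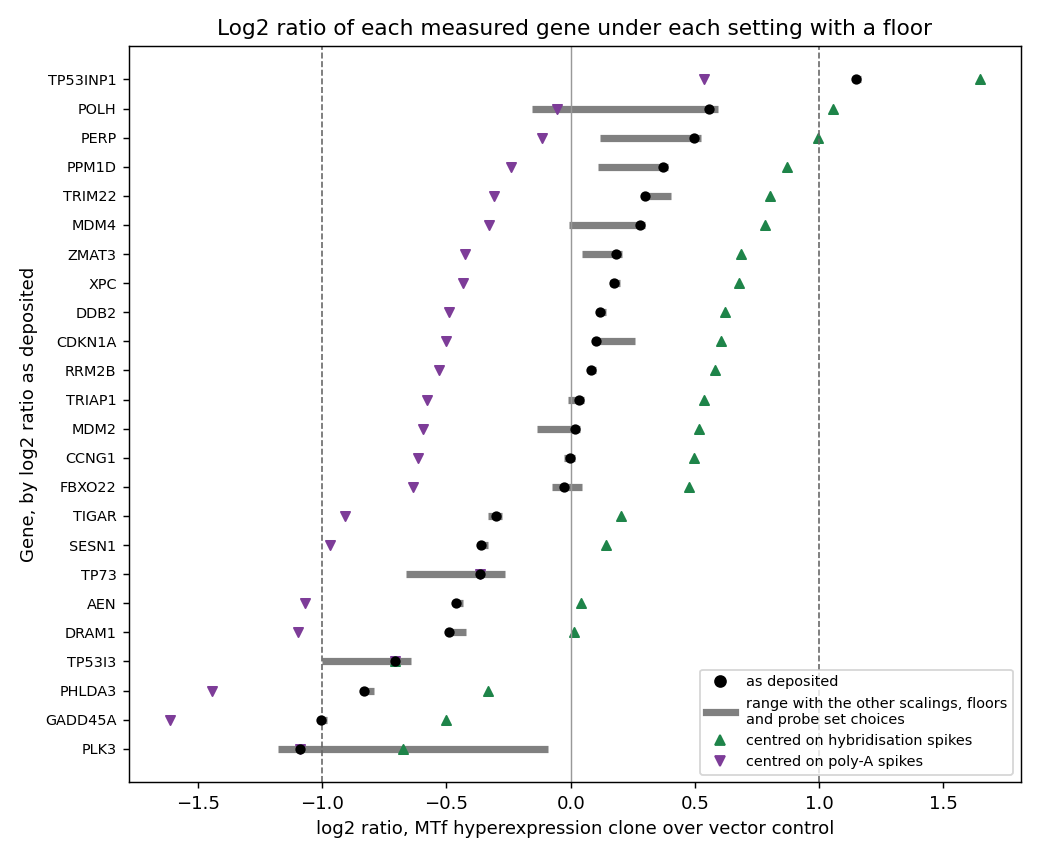
Log2 ratio, MTf hyperexpression clone over vector control, of each of the 24 measured genes as deposited (black), over the other scalings, floors and probe set choices (grey bar; the setting without a floor is left out), and centred on the hybridisation (green) or poly-A (purple) spikes. TP53INP1 stays above 0, and GADD45A and PHLDA3 stay below 0 in every setting drawn, PLK3, TP53I3 and TP73 rest mostly on bounds, which lie below 0 by construction, and the others change side with the spike chosen.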

How the data were processed

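Total RNA from 2 stably transfected SK-N-MC lines was hybridised to Affymetrix U133 Plus 2.0 arrays, 1 per group, per the labels' protocols. The deposited intensity values are linear probe set signals made with GCOS 1.3, per the submitters' processing notes. How probes were summarised is not given in the sources used here, and no detection calls were used. After dropping the lowest and highest 2% of 54675 probe sets, both arrays had a mean of 999.88, so they had been scaled globally.

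Probe sets were named from the platform annotation of 2016, and 41043 of the 41097 with 1 gene symbol were matched by gene ID to the RefSeq table of GRCh38.p14, used for names and chromosomes. Where several probe sets named a gene, the one with the highest mean over both arrays stood for it. Signals under the floor of 208 were set to the floor, which makes the ratio a bound, and genes under it on both arrays had no ratio. Genes were counted past a ratio of 2, with no p-value. The number of arrays limits the precision.

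The members and lists were chosen with earlier results of these data known. Named with all probe sets were genes past 2-fold on any measured probe set, the family and MDM genes and CDKN1A; the other genes got their signals at least once. Scripts ran under Python 3.11.15, numpy 2.4.6, pandas 2.3.3, statsmodels 0.14.6 and matplotlib 3.10.9, and were tested on simulated data. The alternatives were 5 other scalings, 4 other floors and 2 other probe set choices. Scaled signals were scaled before the floor was applied.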

Additional observations from a re-analysis of the deposited data

How the results depend on the processing

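As deposited, 3 of 24 measured genes of the p53 list were at least 2-fold apart, 1 higher and 2 lower, with a median log2 ratio of 0.024; 0 of 35 neighbour genes passed. Of all measured genes, 1.21% were higher and 1.90% lower, with a median of -0.022. Centred on the hybridisation spikes, 2 genes (TP53INP1 and POLH) were higher and 0 lower, the median was 0.535 and 4 neighbour genes passed. The 2 higher genes were 8.70% of those measured, against 7.33% of all genes, whose median was 0.461. Centred on the poly-A spikes, 0 genes were higher and 5 lower (AEN, DRAM1, GADD45A, PHLDA3 and PLK3), 5 in all, the median was -0.553 and 5 neighbour genes passed. The count of lower genes was 1 when centred on the median of all measured genes and after loess (PLK3). It was also 1 with the floor at 2 times its value and with the median of a gene's measured probe sets (GADD45A). In that order of settings, 1.82%, 1.63%, 0.465% and 1.39% of all genes were lower. Without a floor, 5 of 28 genes passed, 4 of them lower, as did 1 neighbour gene. Of the 28 genes, 3.57% were then higher and 14.3% lower, against 7.89% and 17.7% of all 19775 genes. The other settings, quantile normalization, floors at each array's median or own background percentile, and probe sets without shared sequence, kept each of these counts within 1.5 times. For single genes, 202 of the 251 values under an alternative lay within the pooled probe set SD of 0.35 of the deposited value, 49 did not, and 0 turned a call of 2-fold round. The cause of these shifts was not tested. With 1 array per group no array could be left out. No paired analysis was possible because the groups share no replicate number and no result comes from a test.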
